A study of Paeonia ostii with 18 samples.

Results

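Mitochondrial pyruvate entry and respiration was followed in chilled buds of tree peony through 6 of the 14957 probes of a custom oligonucleotide array. The 6 were chosen by the names of their closest matches in other species, with earlier results of these data known. Counts among them are therefore not independent evidence of change. They are the E1 component of pyruvate dehydrogenase (CUST_7515_PI425249770 and CUST_11142_PI425249770, both carrying the symbol MAB1), an isocitrate dehydrogenase (CUST_3387_PI425249770, AT5G14590), 2 subunits of respiratory complex I (CUST_8294_PI425249770 and CUST_11672_PI425249770) and the alpha subunit of mitochondrial ATP synthase (CUST_5540_PI425249770). Potted 4-year-old plants of *Paeonia ostii* 'Feng Dan Bai', all of this 1 cultivar, were kept at 0 to 4 °C, and mixed buds were taken unchilled (0 d) and after 6, 12, 15, 18 and 24 d of chilling. The dormancy states are those that the study inferred from bud break and blossom in a greenhouse. Buds of 0, 6, 12 and 15 d were regarded as in endo-dormancy, the state in which a bud will not grow even when warm. The study also placed 12 and 15 d in a middle phase before release. Buds of 18 d are taken here as at release and buds of 24 d as in eco-dormancy, in which growth waits only for warmth. Each time had 3 biological replicates, each pooled from 3 plants with 3 buds per plant, and each replicate was labelled with a single dye (Cy3) and hybridized to 1 of 18 arrays.

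Pyruvate made from sugars in the cytosol enters the mitochondrion, where the pyruvate dehydrogenase complex turns it into acetyl-CoA. The tricarboxylic acid (TCA) cycle oxidises acetyl-CoA and passes electrons to NADH, complex I takes the electrons from NADH to ubiquinone, and the proton gradient built by the electron transport chain drives ATP synthase. A dormant bud respires its stored carbohydrate, and its return to growth needs both ATP and carbon skeletons from this route.

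Signal is given as log2 of the Agilent processed signal after quantile normalization between arrays, and 1 unit is a doubling. Signals of different probes cannot be compared as amounts of transcript. Statements on whether arrays of different times overlap only describe these arrays. The share of all probes that separate in the same way was not counted. Adjusted p-values are from limma, adjusted over all probes of the array by the method of Benjamini and Hochberg, with a threshold of 0.05. Each of the 6 members was printed as 1 spot, and this spot was well above background, unsaturated and unflagged on all 18 arrays. Over the whole array 82.2 to 96.5% of the probes were well above background. The arrays were printed on 3 slides. The 0 d and 6 d samples shared slide 1 with the replicates numbered 1 and 2 from 12 d. The remaining 12 d sample was on slide 2 together with the 15 d and 18 d samples and the replicate numbered 1 from 24 d, and the other 24 d samples were on slide 3. The comparisons of 15, 18 and 24 d with 0 d therefore also compare slides, and a fit with a term for slide ties slide 1 to slide 2 through the 12 d arrays alone.

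Among the 6 members, 1 of the MAB1 probes, the isocitrate dehydrogenase and 1 of the complex I probes rose against unchilled buds, by 1.45 to 2.06-fold in the comparisons that passed the test. The other MAB1 probe, the complex I flavoprotein and ATP synthase alpha passed in none. Over the 6 times 2 of 6 members passed the moderated F test, against 5.72% of all probes. Over the 5 chilled times alone none of the 6 passed, and 0.348% of all probes did. At an unadjusted p under 0.05 were 1 of 6 members and 2365 of 14955 probes. The calls of members were thus all against unchilled buds, and no difference tested among chilled times passed. As no member passed between 6 and 0 d either, the time at which the change came was not settled.

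**Figure D1:**
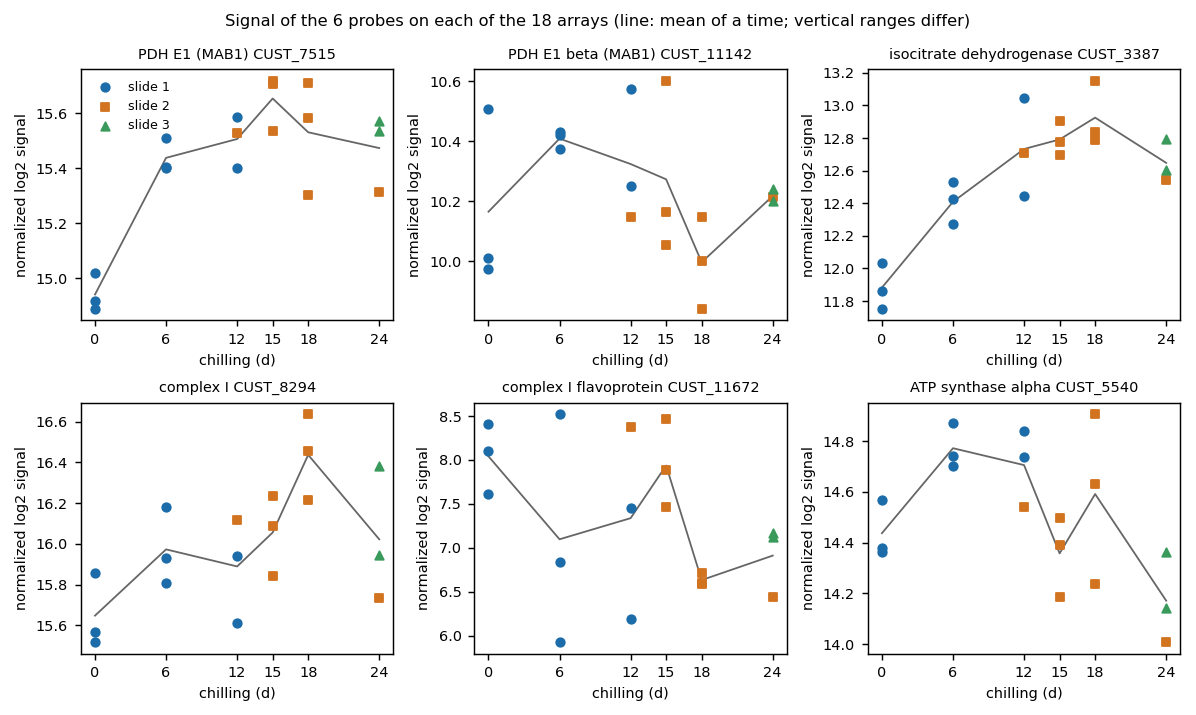
Normalized log2 signal of each of the 6 probes on every array (vertical axes, each on its own scale) against days of chilling (horizontal axes), with the symbol of each point giving the slide and the line joining the means of 3 arrays. For MAB1 CUST_7515 and isocitrate dehydrogenase CUST_3387 all 15 chilled arrays lie above the 3 arrays of 0 d. How many of all probes separate in this way was not counted. The complex I flavoprotein CUST_11672 is widely spread at 6 and 12 d and tightly grouped at 18 d.

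The E1 component of pyruvate dehydrogenase, which decarboxylates pyruvate, commits carbon to the TCA cycle. In Arabidopsis MAB1 is the gene of its mitochondrial beta subunit. The closest match of CUST_7515_PI425249770 was a castor bean pyruvate dehydrogenase. Its signal was 14.91, 14.89 and 15.02 on the 3 arrays of 0 d, and 15.40, 15.51 and 15.40 on those of 6 d. The arrays of 12 d read 15.59, 15.40 and 15.53, and those of 15 d 15.71, 15.54 and 15.72. The signal was 15.71, 15.58 and 15.30 at 18 d, and 15.32, 15.53 and 15.57 at 24 d. Every chilled array was above every unchilled array, and replicate 3 of 18 d was the lowest of all chilled arrays.

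The mean of this MAB1 probe went from 14.94 ± 0.07 (SD, n = 3) at 0 d to 15.44 ± 0.06 at 6 d and was highest at 15 d, at 15.65 ± 0.10. In descending order the times were 15, 18, 12, 24, 6 and 0 d. The arrays of neighbouring times in this order overlapped, except those of 6 and 0 d. It rose by 0.57 on the log2 scale (SE 0.13, adjusted p = 0.0341) at 12 d, by 0.71 (1.64-fold, adjusted p = 0.00962) at 15 d, by 0.59 (adjusted p = 0.00942) at 18 d and by 0.53 (adjusted p = 0.0254) at 24 d, each against 0 d. The 6 d difference of 0.50 (adjusted p = 0.112) did not pass, although all arrays of both times lay on slide 1 and did not overlap. Its F test over the 6 times gave an adjusted p of 0.0348.

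The other MAB1 probe, CUST_11142_PI425249770, matched an E1 beta subunit of the green alga *Chlamydomonas reinhardtii*. Its signal was 10.01, 9.97 and 10.51 at 0 d, and 10.37, 10.42 and 10.43 at 6 d. At 12 d the arrays read 10.57, 10.25 and 10.15, and at 15 d 10.05, 10.60 and 10.16. The last times gave 10.15, 9.84 and 10.00 at 18 d, and 10.21, 10.24 and 10.20 at 24 d. The spread within 0 d and within 15 d was as wide as the distance between any of the means, which ran from 10.00 ± 0.15 at 18 d to 10.41 ± 0.03 at 6 d (SD, n = 3). Neighbours in the descending order of 6, 12, 15, 24, 0 and 18 d all overlapped. The difference of 18 from 0 d was −0.17 (SE 0.18, adjusted p = 0.55), and the F test over the 6 times gave an adjusted p of 0.497.

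The courses of the MAB1 probes were set against each other on the same arrays. Whether they measure 1 gene of peony or several was not settled here. The log2 difference of CUST_7515 from CUST_11142 at 0, 6, 12, 15, 18 and 24 d averaged 4.78 ± 0.23, 5.03 ± 0.06, 5.18 ± 0.18, 5.38 ± 0.39, 5.53 ± 0.22 and 5.26 ± 0.14 (SD, n = 3). The size of such a difference has no meaning as an amount, only its change over time, and it was smallest at 0 d and largest at 18 d. The difference between the courses passed a permutation test of the F over the 6 times (F = 4.14, p = 0.0184, adjusted p = 0.0369 over the 2 pairs of probes compared). With each slide's mean removed and arrays permuted within slides the adjusted permutation p was 0.416, and both before detrending and with normexp it was 4e-05. Leaving out 1 array took it over 0.05 for 10 of the 18 arrays, which were all those of 0 d (permutation p, adjusted, 0.0581, 0.0546 and 0.121 without replicates 1, 2 and 3), 18 d replicates 1 and 2 (0.0846 and 0.0889), 24 d replicates 2 and 3 (0.058 and 0.0534), 6 d replicate 2 (0.0596), 12 d replicate 2 (0.0602) and 15 d replicate 3 (0.0519).

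Isocitrate dehydrogenase oxidises isocitrate to 2-oxoglutarate, a TCA cycle step whose product is also the carbon skeleton for ammonium assimilation. The closest match of CUST_3387_PI425249770 was an NADP-specific enzyme of grape, whereas the main enzyme of the cycle itself uses NAD. The 3 arrays of 0 d read 11.86, 12.03 and 11.75, and those of 6 d 12.42, 12.27 and 12.53. Signal was 12.44, 13.04 and 12.71 at 12 d, and 12.91, 12.69 and 12.77 at 15 d. At 18 d it was 12.79, 12.84 and 13.15, and at 24 d 12.54, 12.61 and 12.79. All chilled arrays were above all unchilled arrays, and the highest array of all was replicate 3 of 18 d.

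The means of isocitrate dehydrogenase at 0, 6, 12, 15, 18 and 24 d were 11.88 ± 0.14, 12.41 ± 0.13, 12.73 ± 0.30, 12.79 ± 0.11, 12.93 ± 0.20 and 12.65 ± 0.13, in that order (SD, n = 3). In the order of 18, 15, 12, 24, 6 and 0 d, the arrays of the first 4 times overlapped with those of their neighbours, whereas 24 and 6 d, and 6 and 0 d, did not overlap. It rose against 0 d by 0.85 on the log2 scale (SE 0.16, adjusted p = 0.0212) at 12 d, by 0.91 (adjusted p = 0.00962) at 15 d, by 1.04 (2.06-fold, adjusted p = 0.0023) at 18 d and by 0.77 (adjusted p = 0.017) at 24 d. The 6 d difference of 0.53 (adjusted p = 0.167) did not pass, with both times on slide 1 and no overlap of arrays. The F test over the 6 times gave an adjusted p of 0.0195, the lowest of the 6 members.

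Complex I is the largest enzyme of the respiratory chain and the point where electrons from NADH enter it. CUST_8294_PI425249770 matched an Arabidopsis protein related to NADH-ubiquinone oxidoreductase. Signal was 15.52, 15.57 and 15.86 at 0 d, and 15.93, 16.18 and 15.81 at 6 d. The arrays of 12 d read 15.94, 15.61 and 16.12, and those of 15 d 16.09, 15.84 and 16.24. It was 16.64, 16.46 and 16.22 at 18 d, and 15.74, 15.95 and 16.38 at 24 d. Only at 18 d were all 3 arrays above all those of 0 d.

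For this complex I probe the means at 0, 6, 12, 15, 18 and 24 d were 15.65 ± 0.18, 15.97 ± 0.19, 15.89 ± 0.26, 16.06 ± 0.20, 16.44 ± 0.21 and 16.02 ± 0.33 (SD, n = 3). Neighbours in the order of 18, 15, 24, 6, 12 and 0 d all overlapped. It rose by 0.79 (1.73-fold, SE 0.20, adjusted p = 0.0175) between 0 and 18 d. The differences of 24 from 0 d (0.37, adjusted p = 0.251) and of 18 from 15 d (0.38, adjusted p = 0.655) did not pass. The F test over the 6 times gave an adjusted p of 0.147. The 18 d call was lost when replicate 1 of 0 d (adjusted p = 0.0592), replicate 2 of 0 d (0.0515), replicate 1 of 18 d (0.0725) or replicate 2 of 18 d (0.0537) was left out, and when arrays were scaled to their 75th percentile (0.64, adjusted p = 0.053).

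CUST_11672_PI425249770 matched a flavoprotein subunit of complex I from castor bean, the part of the enzyme that binds NADH. Its spot was dim, with a processed signal of 67 to 351 before the log. At 0 d it read 8.10, 7.62 and 8.41, and at 6 d 8.52, 6.85 and 5.93. The arrays of 12 d gave 6.19, 7.45 and 8.38, and those of 15 d 7.88, 8.46 and 7.46. At 18 d the values were 6.71, 6.60 and 6.59, and at 24 d 6.44, 7.12 and 7.17. Every array of 18 d and of 24 d was below every array of 0 d and of 15 d, and 6 and 12 d spanned nearly the whole range.

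The means of the flavoprotein at 0, 6, 12, 15, 18 and 24 d were 8.04 ± 0.40, 7.10 ± 1.31, 7.34 ± 1.1, 7.94 ± 0.50, 6.63 ± 0.07 and 6.91 ± 0.41 (SD, n = 3). The SD at 6 d and at 12 d was thus many times that at 18 d, and neighbours in the order of 0, 15, 12, 6, 24 and 18 d all overlapped. The difference from 0 d was −1.41 (SE 0.58, adjusted p = 0.114) at 18 d and −1.13 (adjusted p = 0.242) at 24 d, and that of 18 from 15 d, within slide 2, was −1.30 (adjusted p = 0.584). None of these passed. The F test over the 6 times gave an adjusted p of 0.345.

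The processed signal includes a factor by which the scanner software corrects each spot for its position on the array, termed multiplicative detrending. For the flavoprotein, whose spot lay in row 1 of the array, this factor ran from 0.580 to 1.62 over the 18 arrays, the widest range of the 6 members. For the other members it ran from 0.771 to 1.33 (CUST_11142), 1 to 1.41 (CUST_8294), 1 to 1.27 (CUST_7515), 0.829 to 1 (CUST_3387) and 0.977 to 1.08 (CUST_5540). On replicate 2 of 12 d the factor was 1 for every member, so this array was in effect not detrended at these spots. Each range end of 1 comes from this array. Isocitrate dehydrogenase CUST_3387 at 12 d read 12.66, 13.04 and 12.99 without the factor, against 12.44, 13.04 and 12.71 with it. Without it the flavoprotein read 8.74, 8.45 and 8.41 at 0 d, 7.82, 7.80 and 7.82 at 15 d and 6.63, 6.57 and 6.46 at 18 d, so that its replicates at 0 d and 15 d lay closer together. The spread at 6 d (8.66, 6.90 and 5.95) and 12 d (6.09, 7.44 and 8.34) remained without the factor.

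Before detrending, a setting chosen after seeing the data, the flavoprotein was lower at 18 than at 0 d by a log2 difference of −1.99 (SE 0.57, adjusted p = 0.0317), which passed the test. With a normexp background correction of the median signal, which also leaves the factor out, the difference was −1.51 (adjusted p = 0.0171) at 18 d and −1.39 (adjusted p = 0.0386) at 24 d. With only the arrays of 0 and 18 d in the fit, the detrended values passed too (adjusted p = 0.0244), whereas MAB1 CUST_7515 no longer did (0.0733). With slide as a fixed block the flavoprotein's difference from 0 d was −2.97 (SE 0.97, adjusted p = 0.168) at 18 d and −3.16 (SE 1.11, adjusted p = 0.434) at 24 d, larger than without the block and not past the threshold. For MAB1 CUST_11142 the difference of 18 from 0 d before detrending was −0.36 (adjusted p = 0.0816), which did not pass.

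**Figure D2:**
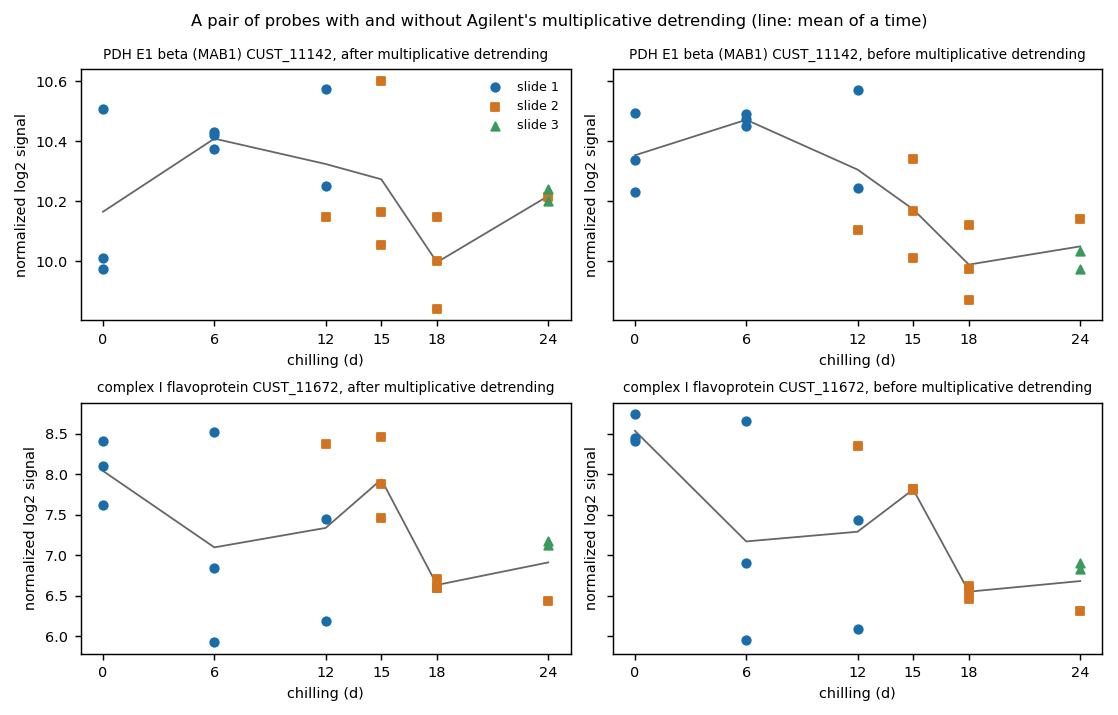
Normalized log2 signal (vertical axes) of MAB1 CUST_11142 (top) and of the complex I flavoprotein CUST_11672 (bottom) against days of chilling (horizontal axes), after (left) and before (right) the positional detrending of the scanner software, with 1 point per array, symbols by slide and a line through the means. Before detrending the flavoprotein arrays of 15 d lie at 7.80 to 7.82, against 7.46 to 8.46 after it, while the arrays of 6 and 12 d stay widely spread.

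The complex I probes were compared in the same way as the MAB1 probes. The log2 difference of CUST_8294 from CUST_11672 at 0, 6, 12, 15, 18 and 24 d averaged 7.61 ± 0.30, 8.88 ± 1.30, 8.55 ± 1.06, 8.12 ± 0.70, 9.80 ± 0.16 and 9.11 ± 0.25 (SD, n = 3). The difference was largest at 18 d and smallest at 0 d. The permutation test over the 6 times did not pass (F = 3.06, permutation p = 0.0582, adjusted p = 0.0582 over the 2 pairs). It passed before detrending (F = 5.60, adjusted permutation p = 0.00965) and with normexp (F = 7.54, adjusted permutation p = 0.00278), and did not pass with each slide's mean removed (adjusted permutation p = 0.185).

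ATP synthase makes ATP from the proton gradient, and its alpha subunit is part of the catalytic head. CUST_5540_PI425249770 matched the mitochondrial form of castor bean. The 3 arrays of 0 d read 14.38, 14.36 and 14.57, and those of 6 d 14.87, 14.70 and 14.74. Signal was 14.84, 14.74 and 14.54 at 12 d, and 14.39, 14.19 and 14.50 at 15 d. It was 14.91, 14.63 and 14.24 at 18 d, and 14.01, 14.14 and 14.36 at 24 d. The 6 d arrays were above the 0 d arrays, both on slide 1, and the 3 arrays of 18 d ran from 14.24 up to the highest value of any array.

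ATP synthase alpha had means of 14.44 ± 0.11, 14.77 ± 0.09, 14.71 ± 0.15, 14.36 ± 0.16, 14.59 ± 0.34 and 14.17 ± 0.18 at 0, 6, 12, 15, 18 and 24 d (SD, n = 3). Neighbours in the order of 6, 12, 18, 0, 15 and 24 d all overlapped. The difference of 6 from 0 d was 0.33 (SE 0.17, adjusted p = 0.352), that of 18 from 0 d was 0.15 (adjusted p = 0.565) and that of 24 from 18 d was −0.42 (adjusted p = 0.33). All arrays of 24 d lay below all those of 0 d, with a difference of −0.27 (adjusted p = 0.342). None passed, and the F test had an adjusted p of 0.129 for the 6 times and of 0.209 for the 5 chilled times, the lowest of the members in the latter.

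By comparison, 0 of 6 members passed between 6 and 0 d, against 0.0802% of all probes. At an unadjusted p under 0.05 were 2 of 6 members and 2326 of 14957 probes. Between 12 and 0 d 2 of 6 members passed, against 3.13% of all probes, and between 15 and 0 d 2 of 6, against 6.86%. Between 18 and 0 d 3 of 6 passed, against 15.8%, and between 24 and 0 d 2 of 6, against 7.74%. These 5 comparisons share the arrays of 0 d, so that the same unchilled level enters each. As the members were chosen with earlier results known, the shares of all probes are given for scale and not as a test.

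Around the release of endo-dormancy, 0 of 6 members passed between 18 and 15 d, and 0.0201% of all probes did. At an unadjusted p under 0.05 were 1 of 6 members and 1223 of 14956 probes. Between 24 and 18 d 0 of 6 passed, with 1 at an unadjusted p under 0.05, and 0% of all probes did, with 1794 at an unadjusted p under 0.05. The mean of 18 and 24 d against that of 6, 12 and 15 d also gave 0 of 6 members and 1.73% of all probes. At an unadjusted p under 0.05 were none of the members and 2544 of all probes. Fits of limma to only the arrays compared also gave 0 members in these comparisons and between 6 and 0 d.

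**Figure D3:**
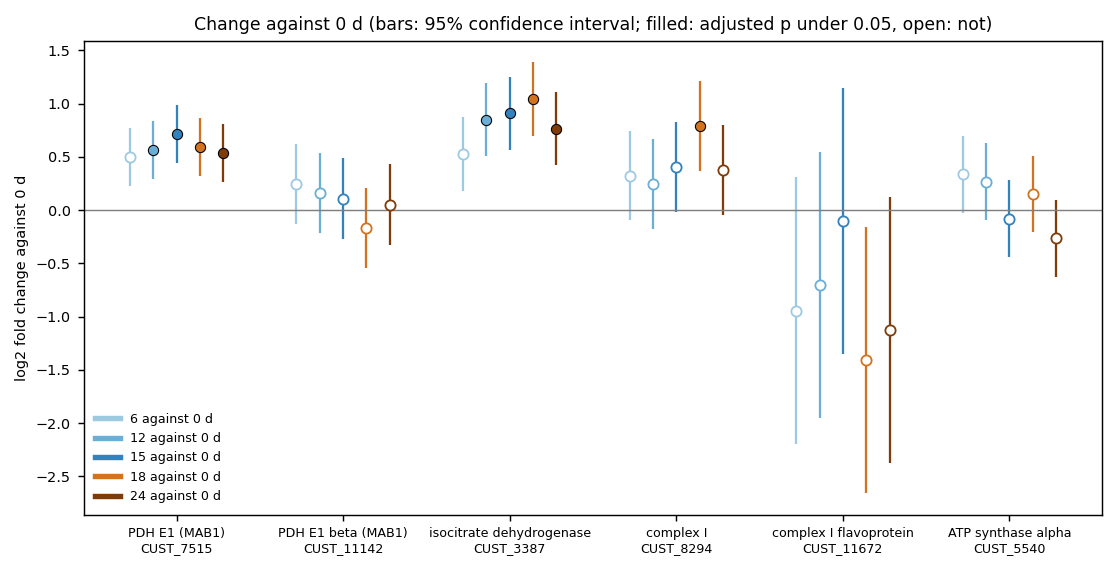
Change of each member against 0 d (vertical axis, log2 fold change) at each chilled time, with bars for the 95% confidence interval from limma and filled points for an adjusted p under 0.05. The filled points are those of MAB1 CUST_7515 and isocitrate dehydrogenase CUST_3387 at 12, 15, 18 and 24 d, and of complex I CUST_8294 at 18 d.

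With slide as a fixed block the members called fell to 0 between 15, 18 or 24 and 0 d, and 1 remained between 12 and 0 d, the isocitrate dehydrogenase (adjusted p = 0.0369). For MAB1 CUST_7515 the log2 difference from 0 d at 12, 15, 18 and 24 d was then 0.55, 0.68, 0.56 and 0.34 (adjusted p = 0.055, 0.37, 0.266 and 0.76). For isocitrate dehydrogenase it was 0.94, 1.08 and 0.70 at 15, 18 and 24 d (adjusted p = 0.363, 0.128 and 0.603). At 15 and 18 d these differences were about as large as without the block, with the SE at 0.23 in place of 0.13 for MAB1 and at 0.31 in place of 0.16 for isocitrate dehydrogenase. Complex I CUST_8294 had a smaller difference of 0.45 (adjusted p = 0.541) at 18 d. With slide as a random block all of these calls were kept, with adjusted p-values of 0.0157 for MAB1, 0.00439 for isocitrate dehydrogenase and 0.0302 for complex I at 18 d. The calls of MAB1 CUST_7515 and isocitrate dehydrogenase at 15 and 18 d passed with each array left out in turn, with adjusted p-values of at most 0.0451.

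At 12 d the MAB1 call was lost without replicates 1 or 2 of 0 d (adjusted p = 0.0888 and 0.0779) or without any of the 12 d replicates (0.066, 0.0554 and 0.0573 without replicates 1, 2 and 3), and at 24 d without replicates 1 or 2 of 0 d (0.0652 and 0.0627) or replicates 2 or 3 of 24 d (0.0798 and 0.0808). The isocitrate dehydrogenase call was lost at 12 d without replicate 1 of 0 d (0.0602) or replicate 2 of 12 d (0.0554), and at 24 d without replicate 3 of 0 d (0.0515) or of 24 d (0.0599). In the F test over the 6 times isocitrate dehydrogenase lost its call without replicate 1 (0.0641) or replicate 3 (0.0506) of 0 d. MAB1 lost it without replicates 1, 2 or 3 of 0 d (0.112, 0.11 and 0.0648), replicates 2 or 3 of 6 d (0.0526 and 0.0546), replicates 1, 2 or 3 of 15 d (0.0668, 0.0516 and 0.0612), replicate 2 of 18 d (0.0648) or replicate 2 of 24 d (0.0588).

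Over the 18 arrays the 3 members that rose were positively correlated. They were grouped by their rise from the same 0 d arrays, so that positive values are partly built in. Pearson's r was 0.71 (Spearman's rho 0.49) between MAB1 CUST_7515 and isocitrate dehydrogenase, 0.70 (0.71) between this MAB1 probe and complex I CUST_8294, and 0.51 (0.53) between isocitrate dehydrogenase and complex I. Between the MAB1 probes r was 0.11 (rho 0.04), and between the complex I probes it was −0.27 (rho −0.23). These arrays share times and slides, and the values describe them without a test.

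Other steps of the same route were followed by name with 31 further probes in 5 lists, which cover the pyruvate dehydrogenase complex, the TCA cycle with complex II and a cytosolic isocitrate dehydrogenase, complex I, complexes III and IV with cytochrome c maturation, and ATP synthase with mitochondrial carriers. The lists are called mitochondrial by these names. Whether each probe encodes a mitochondrial rather than a plastid form was not checked. The 31 probes were drawn from tables of probes that the study had called changed on these same arrays, so that their counts are not independent evidence of a direction. Between 18 and 0 d 13 of the 31 rose and 1 fell, with a median log2 difference of 0.31. Over all 14957 probes 1313 rose and 1047 fell, with a median of 0.05. Between 15 and 0 d 6 of the 31 rose and 2 fell (559 and 467 of all probes), between 24 and 0 d 5 rose and none fell (675 and 483 of all), and between 12 and 0 d 1 rose and 1 fell (241 and 227 of all). None passed between 6 and 0 d, 18 and 15 d, or 24 and 18 d.

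Of the 4 further probes named for pyruvate dehydrogenase, LPD1 (CUST_9480), a dihydrolipoamide dehydrogenase (E3 component), rose by 0.62 at 18 d against 0 d (SE 0.16, adjusted p = 0.0212). The log2 difference of MAB1 CUST_7515 was 0.59. Whether LPD1, PDH-E1 (CUST_2696) and EMB3003 (CUST_12685) belong to the mitochondrial complex or to that of plastids was not checked. The E2 acetyltransferase probes and a further E1 probe did not pass. In the TCA cycle list 5 of 8 further probes rose at 18 d, 1 of them for a cytosolic enzyme. Citrate synthase ATCS (CUST_6616), which joins acetyl-CoA to oxaloacetate at the head of the cycle, rose by 0.76 (SE 0.21, adjusted p = 0.0254) at 18 d and by 0.95 (adjusted p = 0.0181) at 24 d. The cytosolic isocitrate dehydrogenase cICDH (CUST_425), an NADP enzyme in Arabidopsis that lies outside the mitochondrion, rose by 0.69 (SE 0.14, adjusted p = 0.00696).

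Fumarase FUM1 (CUST_2633), which hydrates fumarate to malate, rose by 1.20 at 15 d (adjusted p = 0.0201), 1.45 at 18 d (SE 0.27, adjusted p = 0.00478) and 1.23 at 24 d (adjusted p = 0.0188), though it was well above background on only 2 of the 3 arrays at 0 d and at 12 d. Succinate dehydrogenase, which is complex II of the respiratory chain, was represented by SDH2-2 (CUST_2747), which rose by 0.61 (SE 0.15, adjusted p = 0.0149) at 18 d, and by CUST_11650, which rose by 0.99 (SE 0.25, adjusted p = 0.0186).

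In the complex I list, 2 of 6 further probes rose at 18 d, namely AT2G20360 (CUST_14802) by 0.56 (SE 0.12, adjusted p = 0.00938) and FRO1 (CUST_8701) by 0.62 (SE 0.17, adjusted p = 0.0247). Another of the 6 carried the symbol ndhF (CUST_12992), with its highest mean at 0 d and its lowest at 6 d. Whether ndhF belongs to mitochondrial complex I or to a plastid complex was not checked. AT2G20360 also rose at 15 d (0.61, adjusted p = 0.0127) and at 24 d (0.67, adjusted p = 0.00922), times at which neither complex I member passed. In complexes III and IV, the cytochrome c oxidase subunits AT5G57815 (CUST_13457) and COX6B (CUST_8627) rose at 18 d by 0.75 (adjusted p = 0.0181) and 0.69 (adjusted p = 0.0231). A cytochrome c biogenesis protein (CUST_10092) was the only list probe that fell at 18 d, with a log2 difference of −0.88 (adjusted p = 0.0451).

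Beside ATP synthase alpha, 3 carriers of the inner mitochondrial membrane rose at 18 d. They were a phosphate transporter (CUST_1954, 0.67, adjusted p = 0.0231), which imports the phosphate used by ATP synthase, a substrate carrier (CUST_12807, 0.64, adjusted p = 0.0458) and AT4G26180 (CUST_10765, 0.64, adjusted p = 0.017), which rose by 1.01 at 24 d (adjusted p = 0.00548). At 15 d the ADP,ATP carrier AT5G56450 (CUST_10706), of a family that exchanges ATP for ADP, fell by 0.91 on the log2 scale (adjusted p = 0.0107) and the carrier AT2G30160 (CUST_14906) fell by 1.46 (adjusted p = 0.0092). Among the carriers of this list probes thus passed in both directions, and ATP synthase alpha passed in neither. Whether the carriers that fell lie in the mitochondrion was not checked.

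**Figure D4:**
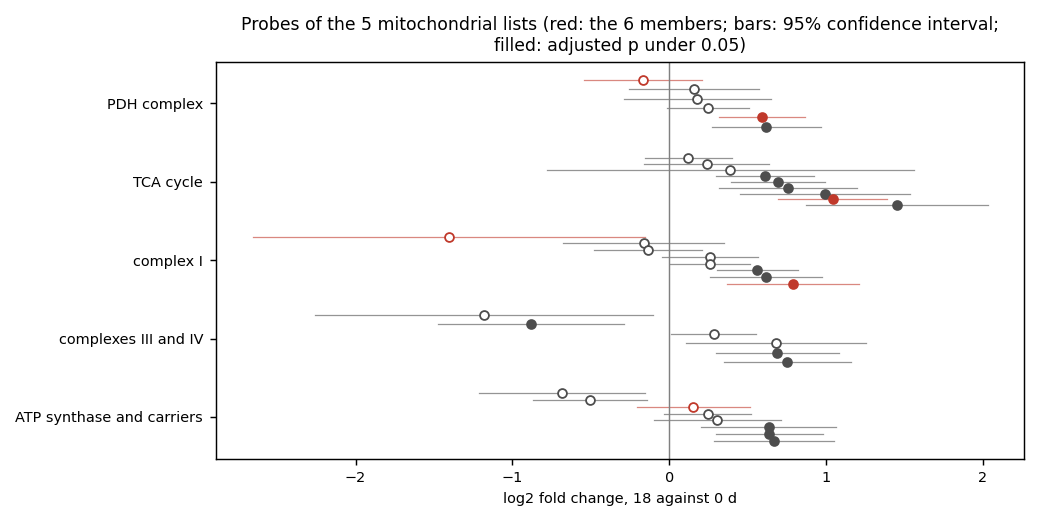
Log2 fold change of 18 against 0 d (horizontal axis) for the 37 probes of the 5 mitochondrial lists (rows, grouped by list), with bars for the 95% confidence interval from limma, filled points for an adjusted p under 0.05 and the 6 members in red. Counting the members, 16 points are filled to the right of 0 and 1 to its left.

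With slide as a fixed block 1 of these 14 calls at 18 d remained, the phosphate transporter (1.42, adjusted p = 0.0336), and none of the 2 at 12 d, the 8 at 15 d or the 5 at 24 d. None of the lost calls changed direction. At 18 d 9 of the 13 lost calls had a larger difference with the block, among them ATCS (0.89), SDH2-2 (0.67) and AT4G26180 (0.84), and 4 a smaller one, which were FUM1 (0.80), LPD1 (0.42), CUST_11650 (0.86) and AT2G20360 (0.29). With each array left out in turn 3 of the 14 held at 18 d (cICDH, FUM1 and AT2G20360), 1 of 8 at 15 d (AT2G30160), 2 of 5 at 24 d (AT2G20360 and AT4G26180) and 0 of 2 at 12 d. The highest adjusted p of the lost calls was 0.142 at 18 d, for CUST_12807 without replicate 1 of 18 d.

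In whole buds, fewer cells of a type and less RNA per cell cannot be told apart. Among 7 probes of green tissue (chlorophyll-binding proteins, photosystem proteins, Rubisco small chain and Rubisco activase) none rose against 0 d at 12, 15, 18 or 24 d, and 2, 4, 3 and 1 fell. Of all 14957 probes 227, 467, 1047 and 483 fell. CUST_14304 went another way, with its highest mean at 24 d and its lowest at 6 d. Between the mean of 6, 12 and 15 d and that of 18 and 24 d, 2 of the 7 rose and 0 fell (120 and 139 of all probes). All 7 were well above background on all arrays. Their summed normalized signal was 63112 to 67475 on the arrays of 0 d, 33307 to 38040 at 6 d, 33897 to 43638 at 12 d, 30647 to 45228 at 15 d, 39444 to 56192 at 18 d and 42434 to 58507 at 24 d. It was highest on the arrays of 0 d, the group in which MAB1 CUST_7515, isocitrate dehydrogenase and complex I CUST_8294 had their lowest means, and its part in their differences was not tested. AGL20 (CUST_653), 1 of 2 MADS-box flowering probes, rose by 2.65 at 24 d against 0 d (adjusted p = 0.0134), times that share no slide. With slide as a fixed block its difference was 1.37 (adjusted p = 0.765), and with only the arrays compared the adjusted p was 0.0916.

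The probes most like each member in course were sought among 717 probes that were well above background on all arrays and had a protein name, by Pearson's r over the 18 arrays. The 717 came from tables of probes that the study had called changed on these same arrays. Well above background on all arrays were 10974 probes other than the members, so closer ones may lie outside the search. For MAB1 CUST_7515 they were a fimbrin (CUST_10004, r = 0.86, Spearman's rho 0.55), the RNA-binding protein SCL30a (CUST_3798, 0.85, rho 0.70) and a cytochrome P450 (CUST_1200, 0.84, rho 0.71). For isocitrate dehydrogenase they were a regulatory subunit of the 26S protease (CUST_11817, 0.93), a Ufm1-conjugating enzyme (CUST_14138, 0.88) and a vacuolar sorting protein (CUST_2069, 0.87). None of these 6 was a probe of the mitochondrial lists.

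Complex I CUST_8294 was closest to a probe described only as catalytic (CUST_12656, 0.87), a Clp protease subunit (CUST_1339, 0.84) and a 10-formyltetrahydrofolate synthetase (CUST_1865, 0.83). ATP synthase alpha was closest to a DNA-3-methyladenine glycosylase (CUST_7416, 0.94), the small chain of ribonucleoside-diphosphate reductase (CUST_4182, 0.90) and the thioredoxin reductase NTRA (CUST_6629, 0.90). MAB1 CUST_11142 reached 0.76 with ABP1 (CUST_4912) and with the E3 ligase PUB14 (CUST_4104) and 0.71 with CPuORF37 (CUST_5439), and the flavoprotein reached 0.80 with a Tubby and F-box protein (CUST_5746), 0.77 with ribosomal protein L35a (CUST_801) and 0.64 with an RNA and export factor-binding protein (CUST_7255). These likenesses describe the 18 arrays, which share times and slides.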

How the data were processed

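RNA of 18 bud samples (6 times, 3 replicates) was measured on single-channel Agilent arrays. The deposited scanner files hold intensity values background-subtracted and detrended by Feature Extraction 10.5.1.1, per the file headers. On replicate 2 of 12 d the detrending factor was 1 for every member. A deposited table of log2 values, quantile-normalized by the authors in GeneSpring, served as an alternative. Groups came from the labels. Log2 of the processed signal was taken, spots marked as outliers and control spots were left out, spots of a probe were averaged and arrays quantile-normalized. In R 4.3.3, limma 3.58.1 (with statmod 1.5.0) was fitted with 1 mean per time over all 18 arrays, p-values adjusted over all probes (Benjamini-Hochberg), and was tested on simulated data. Pairs of probes were compared by permutation of their F (100000 resamples). Differences between plants and those between hybridizations are not separated by the replicates, and the number of arrays limits the precision.

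Named genes are the members, all probes of the pathway lists, and the 3 probes most correlated with each member among the 717 searched. Members and lists were chosen with earlier results of these data known. Names come from the parts of the study's tables held here. Alternatives were the 75th percentile, no normalization between arrays, the value table, normexp (offset 50, on the median signal), a filter on dim probes, flagged spots kept, a block for slide (fixed or random) or for replicate number, a trended and robust prior, the methods' ANOVA, only the arrays compared, each array left out and, chosen after seeing the data, the signal before detrending (floor 1). Probe sequences were not used here.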

Additional observations from a re-analysis of the deposited data

How the results depend on the processing

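Members called over the 6 times numbered 2 in the fit reported, a count given below in brackets. With no normalization between arrays 1 was called, with slide as a fixed block 0 and with slide as a random block 1. The replicate block gave 1, and leaving out each array gave 0 to 2. The methods' ANOVA at an unadjusted p gave 4. At an unadjusted p under 0.05 the moderated F also gave 4 members, and 4054 of 14955 probes. Between 12 and 0 d (2) the count was 0 with no normalization and with only the arrays compared, 1 with slide as a fixed block and with the replicate block, and 0 to 2 with each array left out. Between 15 and 0 d (2) it was 1 with no normalization, 0 with slide as a fixed block or only the arrays compared, and 2 with any array left out. Between 18 and 0 d (3) it was 0 with slide as a fixed block, 4 with normexp or before detrending, 2 to 3 with each array left out, and 3 with only the arrays compared, where the flavoprotein took the place of MAB1 CUST_7515. Between 24 and 0 d (2) it was 0 with slide as a fixed block or only the arrays compared, 3 with normexp, and 0 to 2 with each array left out. The cause of these changes was not tested. Comparisons with no member called had none under any of these fits of limma. The adjusted permutation p of the MAB1 pair was 0.416 with slide-centred differences, 4e-05 with normexp and before detrending, and 0.00132 to 0.121 with each array left out. That of the complex I pair was 0.185 with slide-centred differences, 0.00278 with normexp, 0.00965 before detrending and 0.0185 to 0.123 with each array left out, and it passed without replicate 1 of 6 d (0.0185), replicate 3 of 6 d (0.0427) or replicate 1 of 12 d (0.023). Among the single differences given with their values, those that changed sign had not passed the test. They were complex I CUST_8294 at 24 d (−0.26 with slide as a fixed block), MAB1 CUST_11142 at 18 d (0.21 with no normalization, 0.094 with slide as a fixed block, and −0.26 to 0.0034 with each array left out, the highest without replicate 3 of 0 d) and ATP synthase alpha at 18 d (−0.0031 to 0.33 with each array left out, the lowest without replicate 1 of 18 d), each against 0 d. Of the other alternative values of single probes, 1381 kept direction and call, 194 lost the call and 4 gained it. The labels share replicate numbers between times, but these did not pair the samples. Deviations from the time means of same-numbered arrays correlated at −0.01 on average (−0.23 to 0.27, 7 of 45 pairs over 0.1), and 6 of 18 arrays correlated best with their own number. The replicate block took MAB1 CUST_7515 to an adjusted p of 0.0573 at 12 d and 0.0686 over the 6 times.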

Other observations

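Proton pumps of the vacuole and a pyrophosphatase, which draw on the products of respiration or spare ATP, were measured by 5 further probes, drawn from the same tables as the mitochondrial lists. The soluble inorganic pyrophosphatase AtPPa1 (CUST_9035), which hydrolyses pyrophosphate, rose against 0 d by 1.03 on the log2 scale (limma adjusted p = 0.0398) at 15 d, by 1.31 (SE 0.28, adjusted p = 0.00864) at 18 d and by 1.13 (adjusted p = 0.0275) at 24 d. The vacuolar proton pyrophosphatase AVP1 (CUST_12531), a pump driven by pyrophosphate in place of ATP, rose by 0.62 (adjusted p = 0.0214) at 24 d. The 3 V-type ATPase probes did not pass against 0 d. Between the mean of 6, 12 and 15 d and that of 18 and 24 d, 1 of the 5 probes rose and 0 fell (120 and 139 of all probes). With each array left out in turn the AtPPa1 call held at 18 d (adjusted p of at most 0.0375) but not at 15 d (0.123 without replicate 1 of 15 d) or 24 d (0.0948 without replicate 3 of 0 d), and the AVP1 call was lost without replicate 2 of 24 d (0.0762). With slide as a fixed block none of these calls against 0 d remained, with adjusted p-values of 0.144 to 0.461, although the differences were larger. They were 1.41, 1.69 and 1.58 for AtPPa1 at 15, 18 and 24 d and 0.91 for AVP1 at 24 d.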
